A study of Mus musculus with 16 samples.

Results

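Transcription factors of 20 lineage-defining families were examined in hepatic stellate cells (HSCs) of the mouse. Genes were taken by name: GATA, Hox, Sox, Fox, Tbx, Klf, Runx, Ets and Erg, nuclear receptor (Nr), Lhx, Tcf, Hes and Hey, Meis, Ikzf, Ebf, Pax, Nfatc, Cebp and Maf factors, and Tal1. The rule found 91 rows, holding 88 different genes, among 6515 rows in the 3 tables of FPKM (fragments mapped to a gene, scaled to transcript length and to library size). Of these, 86 rows of 5716 belonged to quiescent HSCs (qHSCs), 1 of 231 to GFP-high and 4 of 568 to GFP-intermediate activated HSCs (aHSCs). No member row named more than 1 gene.

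The qHSC samples were 3 lineage label-positive and 3 lineage label-negative fractions. Both fractions came from the same 3 uninjured WT1CreERT2;Ai14 animals on a C57/Bl6 background, in which tamoxifen at E10.5 had switched on the label in cells then using the WT1 promoter, and livers were taken after weaning. Their sex is male by the sample labels but female by the methods of the study. The aHSC samples were RFP-positive cells from adult male C57/Bl6 animals given carbon tetrachloride for 8 weeks. WT1-deleted animals were PDGFRbCre;WT1_fl_GFP;Ai14 and controls were PDGFRbCre;WT1_+_GFP;Ai14, so controls also carried the Cre, the reporter and the GFP allele of WT1. The Cre is constitutive and driven by PDGFRβ, and when each cell lost WT1 was not measured. By the study's own staining of injured PDGFRβCre;WT1GFP/fl livers, a minority of GFP-positive pericentral cells still held WT1 protein. There were 3 control and 3 WT1-deleted samples of GFP-high cells, and 2 and 2 of GFP-intermediate cells, which the sample labels call GFP low. They came from 6 animals, with 1 GFP-intermediate control sample pooled from 2 animals.

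The deposited tables hold 1 FPKM for each group and only a subset of genes, which the authors listed as different. The deletion tables also list unnamed loci and more rows than the study counts as changed, and the rule behind their choice is not given in the sources used here. No value per sample was used, so neither a spread between animals nor a test can be given for any value below, and the depth of each sample is unknown. Each comparison is described by both group values, by their log2 ratio, and by counts of rows set beside the same count over all rows of the table. A gene without a row is not shown to be unchanged. Where a pair of FPKM values is given without group names, label-negative or control cells come first.

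Lineage transcription factors bind DNA in a sequence-specific manner and set which genes a cell type uses. Cells of 1 lineage carry a characteristic combination of them, often several members of 1 family, and paralogues of a family can serve unrelated lineages. In the liver, GATA4, MAF, SOX18 and ERG act in sinusoidal endothelium, FOXA proteins and nuclear receptors such as FXR in hepatocytes, and PAX5, TCF7, IKAROS and RUNX proteins in lymphocytes. GATA4 and TCF21 also belong to the mesenchymal programme of stellate cells and their precursors.

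Before the families are described, the labelled cell type was checked against its markers. Those of stellate cells did not share 1 direction. Of 13 markers 7 had a row, 3 higher and 4 lower in label-positive cells, with a summed FPKM of 131 and 98.8. Dcn, with 109 in label-negative against 49.0 in label-positive cells, was the most abundant of them in both groups, and Hgf, with 17 and 44.1, went the other way. Pdgfrb, a defining gene of stellate cells, was below 1 in both groups at 0.905 and 0.370. Lrat, Reln and Des had no row, and their levels are not known from these tables. Of 9 mesothelial markers 7 had a row, all higher in label-positive cells, with a summed FPKM of 17.6 and 52.0. Beside these sums, 15 sinusoidal endothelial markers summed to 4914 and 13229 FPKM and 15 lymphocyte markers to 2204 and 150. The sums cover unequal numbers of rows and only listed genes, so they do not show how much stellate cell RNA was present. The term qHSC is kept below as the name the samples carry, and not as a cell type shown by these markers.

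In qHSCs, 53 of the 86 member rows were higher in label-positive cells, or 61.6%, and 33 were higher in label-negative cells. Over all 5716 rows, 50.4% were higher in label-positive cells. The difference was at least 2-fold upward in label-positive cells for 43 members, 50% of them against 37.7% of all rows, and at least 2-fold downward for 28 members, 32.6% against 43.5%. The median log2 ratio, label-positive over label-negative, was 0.998 for members and 0.64 for all rows above 0 in both groups. Among members the upward ratios had a median of 1.43 and the downward ratios one of -2.51, so that the downward differences were the larger. Over all rows these medians were 1.31 and -2.02. At least 8-fold differences were found downward in 13 members, or 15.1% against 14.4% of all rows, and upward in 2 members, or 2.33% against 3.13%. Summed over all 86 rows, FPKM was 2867 in label-negative against 3049 in label-positive cells.

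**Figure D1:**
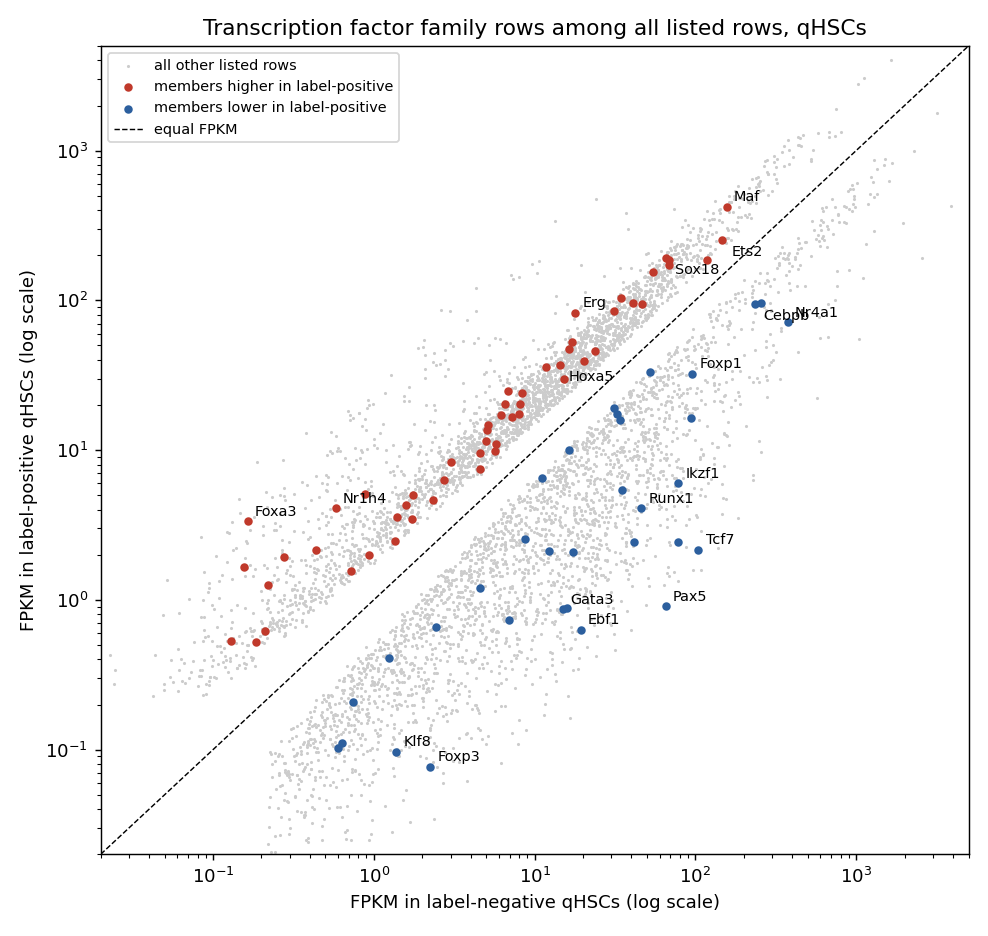
FPKM of each listed row in label-negative (x axis) and label-positive (y axis) qHSCs, both on log scales, with 1 value per group and no error bars because replicates were combined before deposit. The 53 members higher in label-positive cells (red) lie mostly in a narrow band above the line of equal FPKM, whereas the 33 lower members (blue) are spread over a wider range of ratios, down to Pax5; grey points are all other rows above 0 in both groups.

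No member was listed at 0 in either group. FPKM reached 1 in both groups for 62 members and in neither for 6 members, and each of the groups alone fell below 1 for 9 members. The smallest absolute log2 ratio of any member was 0.64, that of Klf4. Of 240 protein-coding genes of the GENCODE vM21 annotation that fit the name rule, 85 had a row, or 35.4%, against 4915 of 21951 protein-coding genes, or 22.4%.

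The families differed in how far their members shared a direction. In 6 families all rows were higher in label-positive cells, in 4 families all were lower, and 10 families had rows in both directions. Among families with at least 3 rows, Hox and Sox were higher throughout, whereas Ikzf, Runx and Nfatc were lower throughout. The remaining families with a single direction had 1 or 2 rows. All 3 genes had a row in the Meis family.

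**Figure D2:**
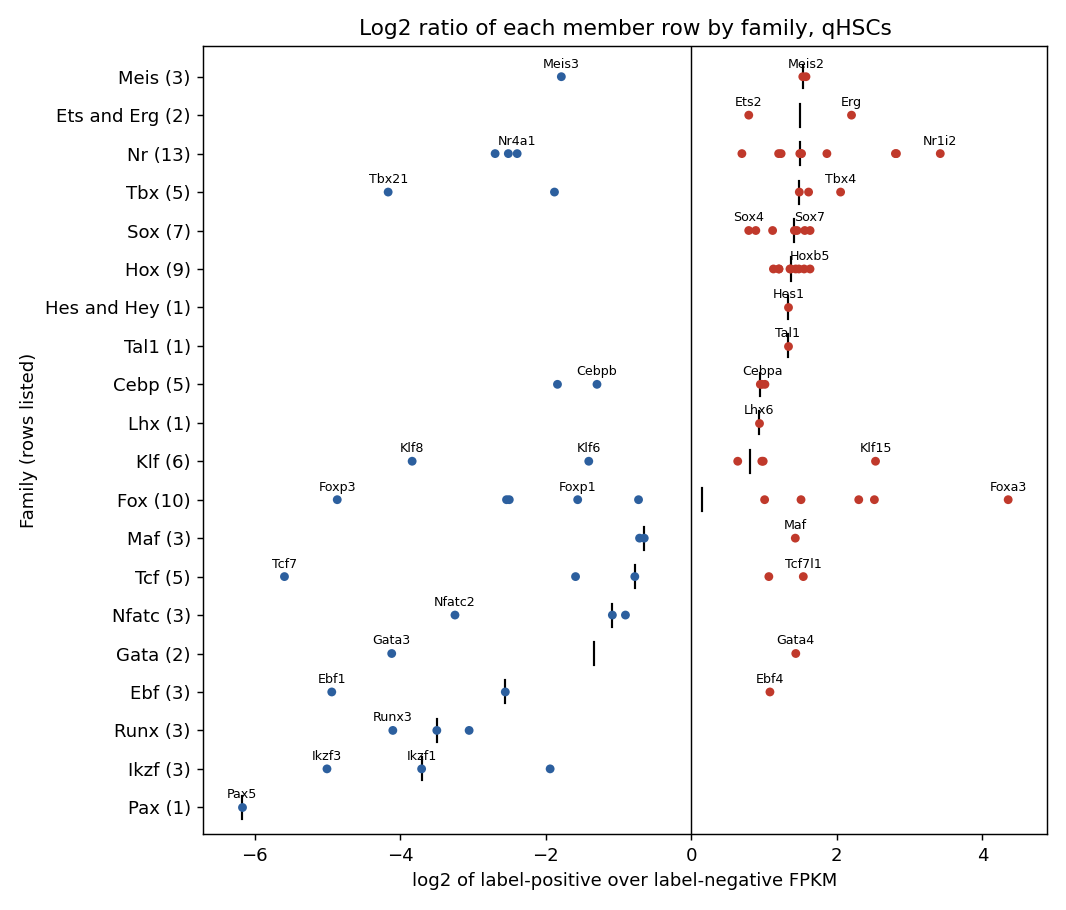
Log2 ratio of label-positive over label-negative FPKM (x axis) for each member row by family (y axis, number of rows in brackets), with a black bar at the family median. Points right of 0 are higher in label-positive qHSCs; the 7 Sox and 9 Hox rows lie right of 0, and the 3 Runx and 3 Ikzf rows left of it.

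Promoters of 4 members are shown, both ends of the range of ratios and an abundant row in each direction. Foxa3 had the largest upward and Pax5 the largest downward ratio, Nr4a1 had the highest FPKM of any member in label-negative cells, and Nr2f2 is an abundant member of a subfamily that was higher in label-positive cells. Sequences are from RefSeq on GRCm38.p6, from 250 bases before to 50 after the start, given 5′ to 3′ on the strand of the gene. They lie at chr7:70366697-70366996 (minus strand) for Nr2f2 (ENSMUSG00000030551), chr7:19023490-19023789 (minus) for Foxa3 (ENSMUSG00000040891), chr4:44710645-44710944 (minus) for Pax5 (ENSMUSG00000014030) and chr15:101266596-101266895 (plus) for Nr4a1 (ENSMUSG00000023034). Capitals mark every match, on either strand, to 7 motifs: the TATA box as TATAAA, the CCAAT box as these letters, the GC box as GGGCGG, the cAMP response element as TGACGTCA, the GATA motif as AGATAA, the E-box as CACGTG and the ETS motif as CCGGAA.
Nr2f2: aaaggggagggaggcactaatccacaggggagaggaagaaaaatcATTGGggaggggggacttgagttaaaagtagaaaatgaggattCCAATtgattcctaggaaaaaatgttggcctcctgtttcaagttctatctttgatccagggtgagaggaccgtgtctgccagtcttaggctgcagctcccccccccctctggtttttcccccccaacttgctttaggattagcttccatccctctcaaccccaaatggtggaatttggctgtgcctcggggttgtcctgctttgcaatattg
Foxa3: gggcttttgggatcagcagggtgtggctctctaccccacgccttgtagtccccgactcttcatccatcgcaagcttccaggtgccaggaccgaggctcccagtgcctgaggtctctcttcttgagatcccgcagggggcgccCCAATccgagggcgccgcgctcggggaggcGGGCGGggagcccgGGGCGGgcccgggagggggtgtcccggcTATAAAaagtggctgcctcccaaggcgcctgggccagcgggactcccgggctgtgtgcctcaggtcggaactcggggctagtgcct
Pax5: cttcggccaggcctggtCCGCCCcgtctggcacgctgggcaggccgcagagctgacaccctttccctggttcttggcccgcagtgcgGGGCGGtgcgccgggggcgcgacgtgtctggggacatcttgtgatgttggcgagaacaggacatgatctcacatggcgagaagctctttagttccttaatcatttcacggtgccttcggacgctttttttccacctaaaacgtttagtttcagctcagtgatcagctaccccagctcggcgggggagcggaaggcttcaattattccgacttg
Nr4a1: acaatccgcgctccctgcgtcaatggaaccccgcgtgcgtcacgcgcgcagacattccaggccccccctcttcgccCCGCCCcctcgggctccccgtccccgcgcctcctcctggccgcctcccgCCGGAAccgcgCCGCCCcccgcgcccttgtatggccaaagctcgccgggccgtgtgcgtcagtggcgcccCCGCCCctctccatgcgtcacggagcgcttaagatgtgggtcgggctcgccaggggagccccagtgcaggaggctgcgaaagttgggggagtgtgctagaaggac

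The Nr2f2 window held 2 CCAAT boxes and only 2 CpG dinucleotides. That of Foxa3 held a TATA box, a CCAAT box and 2 GC boxes, with 22 CpG dinucleotides. The Pax5 window held 2 GC boxes and 23 CpG dinucleotides, and the Nr4a1 window 3 GC boxes, 1 ETS motif and 35 CpG dinucleotides. No matches overlapped. Promoters were found for 65 of the 86 members. The median number of CpG dinucleotides was 16.0 in 49 windows of members higher in label-positive cells and 20.5 in 38 windows of lower members, against 7 over all 32851 windows, which include noncoding genes. A CCAAT box was found in 44.9% of windows of higher members and in 26.3% of those of lower members, against 37.4% of all windows, and a GC box in 49.0% and 57.9%, against 35.7%. A TATA box was present in 24.5% and 15.8%, against 13.6% of all windows. The GATA motif was found in 12.2% and 5.26% (11.2% of all windows), the E-box in 3 of 49 windows of higher and 4 of 38 of lower members (7.15%) and the ETS motif in 10.2% and 18.4% (14.9%). None of the member windows held the cAMP response element, which was in 1.79% of all windows. Several windows can belong to 1 gene, and a match to these letters is not a bound site.

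Factors of endothelial cells were higher in label-positive qHSCs. Of 29 genes listed for endothelium, 17 had a row, of which 16 were higher in label-positive cells, with a median log2 ratio of 1.48. Their summed FPKM was 839 in label-negative against 1975 in label-positive cells. Of the 17 genes, 10 are also in the list of another lineage. Beside this and every later list in qHSCs stands the share of all 5716 rows that were higher in label-positive cells, 50.4%. The lists of factors and markers were chosen with earlier results of these data known, so their counts are a description only. In bulk RNA, fewer cells of a type and less RNA per cell cannot be told apart, here or in any result below.

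Maf, a basic leucine zipper factor of sinusoidal endothelium and of macrophages, was the most abundant member in label-positive cells, at 157 FPKM in label-negative against 423 in label-positive cells. Gata4, a zinc finger factor that specifies sinusoidal endothelium and is also used by stellate cells, had 68.3 and 185. The groups differed 2.69-fold for Maf and 2.71-fold for Gata4, almost the same factor at different levels. The SoxF factors, which control arterial, venous and lymphatic differentiation, all had a row. Sox18 measured 65.4 FPKM in label-negative against 193 in label-positive cells. Sox17 had 31.0 and 84.9, and Sox7 had 17 and 52.7. The 3 log2 ratios lay between 1.45 and 1.63.

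Erg, an ETS factor that maintains endothelial identity, stood above this range with an FPKM of 17.9 and 82.5, a log2 ratio of 2.20. Ets2, a widely expressed relative, was more abundant at 147 and 255 but differed less, with a log2 ratio of 0.79. Tal1, a basic helix-loop-helix partner of GATA factors in blood and endothelium, had 8.14 and 20.4. Hes1, a repressor induced by Notch, had 68.5 and 173 and was the 1 row of its family. Klf4, a factor induced by shear stress in endothelium that also acts in monocytes, was abundant in both groups at 119 and 185, and its 1.56-fold difference was the smallest upward one. Nfatc1, which relays calcium signals in endocardium and in lymphocytes, was the 1 gene of the endothelial list that was lower in label-positive cells, with 33.8 in label-negative against 16.0 in label-positive cells.

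Markers of liver sinusoidal endothelium moved with these factors. All 15 markers had a row and were higher in label-positive cells, with log2 ratios from 1.28 to 1.86 and a median of 1.45, and their summed FPKM was 4914 and 13229. None was at 0 in either group. Of the 86 members, 23 had a log2 ratio within the range of these markers, or 26.7%, against 18.3% of all rows. They include the 3 SoxF genes, Gata4, Maf, Meis1, Meis2, Hes1 and Tal1. Hoxa5, Hoxb5, Nr1h3, Sox13, Tbx2 and Tcf7l1 are among them too, whereas Erg, Ets2, Klf4 and Nfatc1 of the endothelial list are not. The median of all upward rows, 1.31, and that of the mesothelial markers, 1.43, also lay within this range, so it is not particular to endothelium. The part of endothelial cells in these values was not tested.

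Factors that pattern the embryonic axis and mesenchyme lay in an overlapping range of ratios. All 9 Hox rows were higher in label-positive qHSCs, with log2 ratios between 1.13 and 1.63. Hox proteins assign position along the body axis, and adult mesenchymal and endothelial cells keep a positional code of them. The rows belonged to the Hoxa cluster, with 3 rows, and to the Hoxb cluster, with 6 rows of paralogue groups 2 to 8. Hoxa5 was the most abundant, at 14.3 FPKM in label-negative against 36.9 in label-positive cells. Hoxb5 followed with 6.53 and 20.2, and Hoxb4 with 7.98 and 17.4. Hoxb8, the most posterior row, was below 1 in both groups at 0.212 and 0.620. Hoxb3os, an antisense transcript in the Hoxb cluster, had 5.0 and 11.5, and because strand is not stated for the counting its reads cannot be told from those of overlapping Hoxb genes.

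Meis1 and Meis2 encode homeodomain partners of Hox proteins and were also higher in label-positive cells. Meis2 measured 34.5 FPKM in label-negative against 103 in label-positive cells, and Meis1 had 8.37 and 24.2. Meis3, the third paralogue, went the other way, with 8.74 in label-negative against 2.54 in label-positive cells. Nr2f2, an orphan nuclear receptor that specifies veins and is active in mesenchyme, had 54.4 and 155. Its relatives Nr2f1, with 6.15 and 17.3, and Nr2f6, with 41.1 and 96.6, were higher in label-positive cells too. All 3 Nr2f genes therefore had a row and 1 direction. Tbx2, a T-box repressor of cardiac and mesenchymal tissue, had 11.7 and 35.8.

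Tcf7l1 and Tcf7l2, which bind β-catenin at Wnt target genes, were higher in label-positive cells. Tcf7l1 measured 16.3 FPKM in label-negative against 47.4 in label-positive cells, and Tcf7l2 had 4.58 and 9.60. Among other Sox rows, Sox13 had 5.07 and 13.5, and Sox4, a SoxC factor of progenitor cells, had 5.68 and 9.82. Foxc1, a forkhead factor of vascular and mesenchymal development, had 1.76 and 5.01. Lhx6, a LIM homeodomain factor, had 5.73 and 10.9 and was the 1 Lhx row. These were low to moderate levels, and all of these ratios lay between 0.79 and 1.54 on the log2 scale.

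Factors of hepatocytes were higher in label-positive qHSCs without exception among listed rows, and mostly at low levels. Of 16 genes listed for hepatocytes and bile ducts, 15 had a row and all 15 were higher, with a median log2 ratio of 1.86. Of all rows, 50.4% were higher, and this list too was chosen with earlier results of these data known. Of these, 6 are also in another lineage list. Foxa1, Foxa2 and Foxa3 are pioneer factors that open hepatocyte enhancers. Foxa3 measured 0.164 FPKM in label-negative against 3.35 in label-positive cells, a log2 ratio of 4.36 and the largest upward ratio of any member. Foxa1 had 0.221 and 1.27, and Foxa2 had 0.434 and 2.14. All 3 were below 1 in label-negative cells.

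Nuclear receptors of bile acid and drug metabolism showed the same order of difference. Nr1i2, which encodes the xenobiotic receptor PXR, measured 0.155 FPKM in label-negative against 1.66 in label-positive cells. Nr1h4, the bile acid receptor FXR, had 0.578 and 4.08, and Nr0b2, its target SHP, had 0.276 and 1.93. These 3 had log2 ratios of 3.42, 2.82 and 2.81. Klf15, which controls amino acid catabolism in liver, had 0.883 and 5.10. Nr5a2, which drives bile acid synthesis and is also used in the pancreas, was more abundant at 6.82 and 24.8. Nr1h3, the oxysterol receptor LXRα of hepatocytes and macrophages, had 5.17 and 14.7. All 10 member rows of the Nr family outside the Nr4a group were higher in label-positive cells, with log2 ratios from 0.70 for Nr2c1 to 3.42. Nuclear receptors with other gene names fall outside the rule and are not covered by this count.

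Hepatocyte markers moved with these factors. Of 12 markers 11 had a row, all higher in label-positive cells, with a median log2 ratio of 2.29 and a summed FPKM of 199 and 1179. Sox9, a marker of bile duct cells that activated stellate cells also use, had 0.719 and 1.56. The highest hepatocyte marker was Fabp1 in label-positive cells at 478, more than any hepatocyte factor. The part of hepatocyte RNA in these values was not tested.

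Lymphocyte factors were lower in label-positive qHSCs, and by larger factors. Of 25 genes listed for T and NK cells, 18 had a row, with 16 lower and 2 higher in label-positive cells and a median log2 ratio of -2.97. Sox4 and Sox13 were the 2 higher ones. Of 12 genes listed for B cells, 7 had a row, with 6 lower. The other was Hhex, a homeobox gene of hepatic and endothelial development outside the name rule, with 21.4 in label-negative against 35.3 in label-positive cells. Of the rows, 7 of the T and NK cell list and 5 of the B cell list are in another lineage list.

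Pax5, which commits cells to the B lineage, measured 65.3 FPKM in label-negative against 0.903 in label-positive cells, 72.4-fold lower and the largest downward difference of any member. Ebf1, which acts upstream of Pax5 and also marks perivascular mesenchyme, had 19.4 and 0.632. Tcf7, the Wnt-responsive factor of T cells, had 104 and 2.16, a 48.2-fold difference. Unlike Tcf7, the related Tcf7l1 and Tcf7l2 were higher in label-positive cells.

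All 3 listed Ikaros-type zinc finger genes, which organise lymphocyte chromatin, were lower. Ikzf3 measured 78.4 FPKM in label-negative against 2.44 in label-positive cells, and Ikzf1 had 78.3 and 6.0. The genes were thus level in label-negative cells, and Ikzf1 was the higher of them in label-positive cells. Ikzf2, which is used by regulatory T cells, was lower in abundance at 4.58 and 1.19.

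The GATA family had 1 row in each direction. Gata3, which specifies T helper and innate lymphoid cells, measured 15.0 FPKM in label-negative against 0.866 in label-positive cells, against 68.3 and 185 for Gata4. The Gata4 level was 4.54 times that of Gata3 in label-negative cells and 213 times in label-positive cells. Tbx21, the T-box factor of type 1 responses and NK cells, had 15.9 and 0.886, close to Gata3 in both groups. Foxp3, which defines regulatory T cells, had 2.24 and 0.0768.

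The Runx genes, which share a DNA-binding domain and act in haematopoiesis and bone, were all lower. Runx1, of haematopoietic stem and myeloid cells, measured 46.0 FPKM in label-negative against 4.08 in label-positive cells. Runx3, of cytotoxic T cells, had 41.6 and 2.42, and Runx2, of osteoblasts and plasmacytoid dendritic cells, had 17.3 and 2.09. Together the 3 genes summed to 105 and 8.59. The Nfatc genes, which respond to calcineurin, were lower too. Nfatc2 had 6.97 and 0.733, whereas Nfatc3, at 32.4 and 17.3, differed by less than 2-fold.

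Forkhead genes split by subfamily. The 3 Foxa rows were higher, whereas the 3 Foxp rows and the 1 Foxo row were lower in label-positive cells. Foxp1, which is used broadly and in lymphocyte development, measured 95.6 FPKM in label-negative against 32.4 in label-positive cells. Foxp4 had 12.3 and 2.12. Foxo3, a stress-responsive factor restrained by insulin signalling, had 16.4 and 9.94.

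Lymphocyte markers moved with these factors. All 15 markers had a row and were lower in label-positive cells, with a median log2 ratio of -4.96 and a summed FPKM of 2204 in label-negative against 150 in label-positive cells. None was at 0. The part of lymphocytes in these values was not tested.

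**Figure D3:**
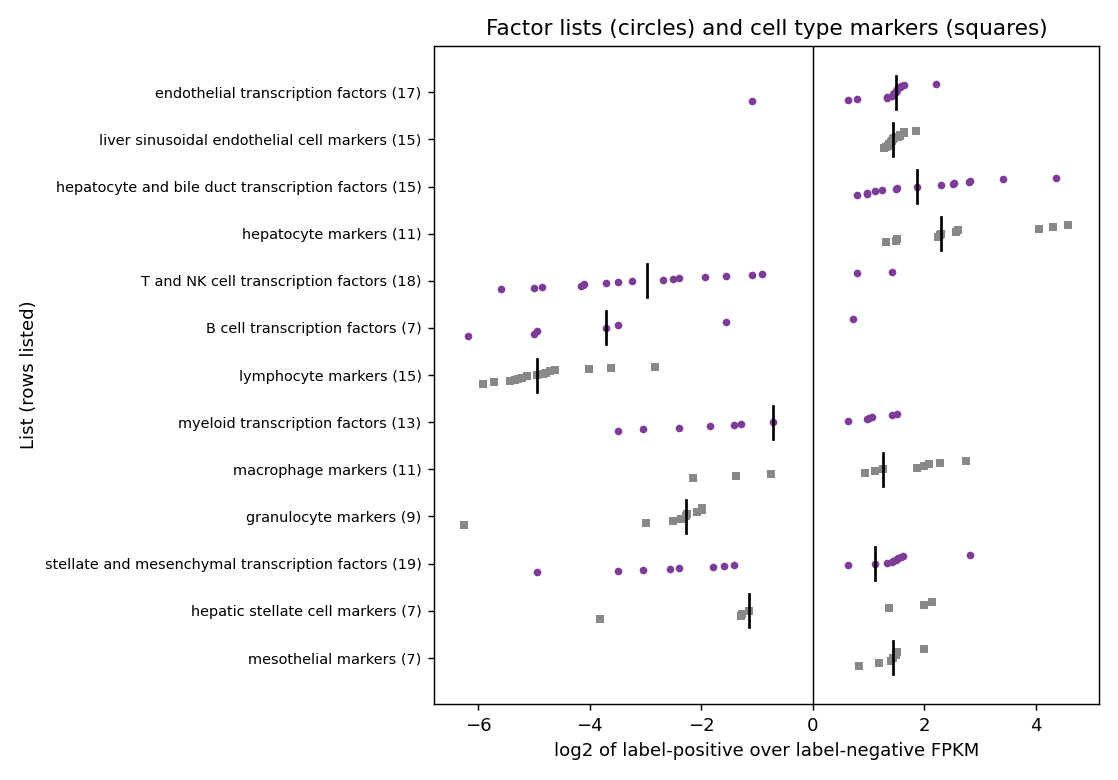
Log2 ratio of label-positive over label-negative FPKM (x axis) for transcription factors listed by lineage (purple circles) and for cell type markers (grey squares), by list (y axis, rows in brackets), with a black bar at the median. Endothelial factors and sinusoidal endothelial markers have medians of 1.48 and 1.45, and the T and NK cell factors and lymphocyte markers have medians of -2.97 and -4.96; genes in several lists are drawn in each.

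Immediate-early and myeloid factors held the most abundant members of label-negative qHSCs. The Nr4a genes encode orphan receptors that many stimuli induce rapidly, in lymphocytes, macrophages and mesenchymal cells. Nr4a1 measured 374 FPKM in label-negative against 71.3 in label-positive cells and stood above 97.5% of rows in label-negative cells. Nr4a2 had 93.7 and 16.4, and Nr4a3 had 35.1 and 5.41. The 3 ratios were close, from -2.70 to -2.39 on the log2 scale. Other immediate-early genes did not share 1 direction. Of 16 such genes, listed after values had been seen, 5 had a row. Fos, with 809 and 1329, Egr1, with 316 and 779, and Ier3 were higher, and Egr3, with 13.3 and 1.26, and Myc were lower in label-positive cells.

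Of 16 myeloid factors, 13 had a row, of which 6 were higher and 7 lower in label-positive cells, and 8 are in another lineage list. Klf6, an injury-responsive factor known from stellate cells, measured 257 FPKM in label-negative against 96.7 in label-positive cells. The Cebp family also split. Cebpb, an inducible leucine zipper factor of macrophages and the acute phase, had 233 and 95.0, and Cebpe, of late granulocyte precursors, had 0.746 and 0.208. Higher in label-positive cells were Cebpd, with 46.6 and 94.1, Cebpg, with 23.7 and 45.8, and Cebpa, the factor of granulocyte progenitors and hepatocytes, with 20.2 and 39.5. The 3 upward ratios lay between 0.95 and 1.01.

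The Maf family split as well. Mafk, a small partner without an activation domain, measured 52.1 FPKM in label-negative against 33.3 in label-positive cells, less than a 2-fold difference and in the direction opposite to Maf. Granulocyte markers were lower in all 9 listed rows of 11 markers, with a summed FPKM of 2339 and 467. Of 13 macrophage markers 11 had a row, 8 higher and 3 lower, with a summed FPKM of 1834 and 1115. Lyz2, which granulocytes also express, had 1283 and 289, and without it, chosen after values were seen, the other 10 rows summed to 551 and 826. Ctss, with 247 and 94.9, and Cd68, with 68.5 and 40.5, were the other lower rows. Clec4f, a defining gene of Kupffer cells, had 34.2 and 165.7. The part of myeloid cells in these factors was not tested.

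Of 39 factors listed for stellate and other mesenchymal cells, 19 had a row, 11 higher and 8 lower in label-positive cells, and 15 of the 19 are in another lineage list. Their median log2 ratio was 1.12. The most abundant were Nr4a1 in label-negative cells, at 374, and Maf in label-positive cells, at 423. Gata4, Nr2f2 and Klf6, given above, are in this list as well. So are Ebf1, Runx1, Runx2 and Meis3, all lower in label-positive cells. Log2 ratios in the list ran from -4.94 for Ebf1 to 2.82 for Nr1h4. Tcf21, which marks stellate cell precursors and fibroblasts, measured 1.24 FPKM in label-negative against 0.410 in label-positive cells. Ebf2, of this list, and Tbx3, which is also used in mesenchyme but is not in this list, were below 1 in both groups. Ebf2 had 0.602 and 0.102, and Tbx3 had 0.186 and 0.520.

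The other members were of low to moderate abundance. Among Hox rows, Hoxb2 measured 7.2 FPKM without and 16.6 with the label, and Hoxa3 and Hoxb7 were below 10 FPKM in both groups. Klf9, a factor induced by glucocorticoids, measured 15.3 and 29.9, and Klf12 measured 2.34 and 4.64. Nr3c2, the mineralocorticoid receptor, measured 2.73 and 6.27. Sox12, Foxq1, Ebf4 and Tbx4, a T-box factor of hindlimb and lung mesenchyme, were also higher in label-positive cells and did not reach 5 FPKM in either group. Lower in label-positive cells were Tcf20, a chromatin-associated coactivator that shares only its name with the Wnt factors, at 11.2 and 6.51, Tbx6, of presomitic mesoderm, at 2.43 and 0.660, Klf8, at 1.38 and 0.0967, and Foxd4, at 0.629 and 0.111. Of the 86 members 26 were in none of the lineage lists, and 19 of these were higher in label-positive cells.

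Factors outside the name rule split likewise. Of 57 such genes 38 had a row, 22 higher and 16 lower in label-positive cells, with a median log2 ratio of 1.02. Epas1, the hypoxia-responsive factor of endothelium, measured 61.3 FPKM in label-negative against 212 in label-positive cells. Hnf4a, which maintains hepatocytes, had 1.10 and 13.0. Lef1, the partner of Tcf7 in T cells, had 39.7 and 0.626, and Spi1, the myeloid factor PU.1, had 79.5 and 22.7.

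After WT1 deletion few members had a row. WT1 is a zinc finger factor of mesothelium and of activated stellate cells, and its own values were not analysed here. In GFP-high aHSCs the 1 member was Foxp2, a forkhead repressor known for its part in the brain and lung, with 0.129 FPKM in control against 0.870 in WT1-deleted cells. It was below 1 in both groups, and its log2 ratio was 2.76. Over all 123 named rows of that table, 77.2% were higher after deletion.

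In GFP-intermediate aHSCs 3 of the 4 members were higher after WT1 deletion, against 37.2% of 419 named rows. Cebpd, an inducible leucine zipper factor of acute-phase and stromal cells, had 38.7 FPKM in control against 118 in WT1-deleted cells. Sox9, a factor of bile duct and cartilage cells that activated stellate cells also use, had 1.67 and 4.69, and Foxo6, a forkhead factor of the insulin pathway, had 10.6 and 24.5. Their log2 ratios were 1.61, 1.49 and 1.21. Cebpa was the 1 lower member, with 79.5 in control against 24.2 in WT1-deleted cells, a 3.29-fold difference. The 2 Cebp genes thus differed in opposite directions, and Cebpd was the more abundant of them after deletion and the less abundant in controls.

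**Figure D4:**
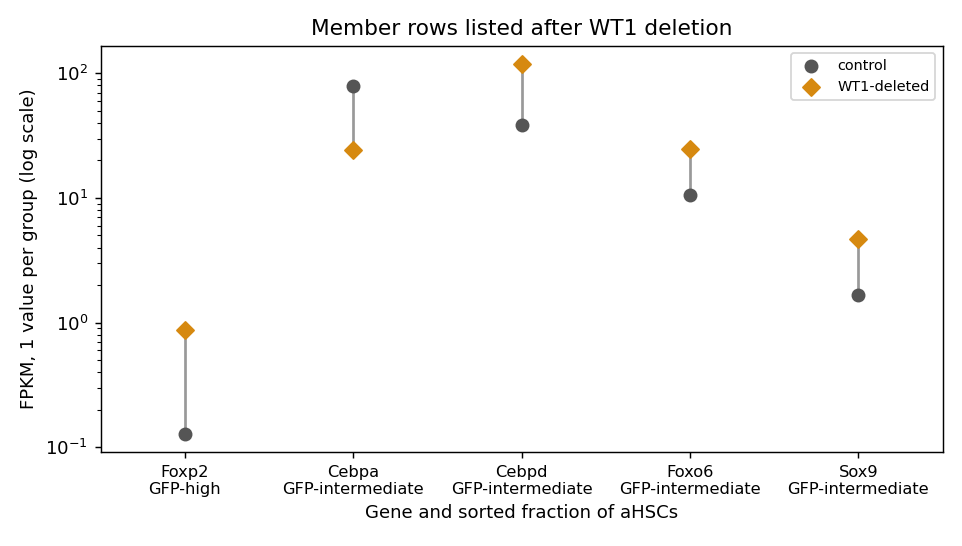
FPKM (y axis, log scale) of the 5 member rows of the WT1 deletion tables in control (grey circles) and WT1-deleted (orange diamonds) aHSCs, 1 value per group with replicates combined. Foxp2, Cebpd, Foxo6 and Sox9 are higher and Cebpa is lower in WT1-deleted cells.

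Macrophage markers moved with Cebpa in GFP-intermediate aHSCs. Beside the lists below stands the share of all 419 named rows of these cells that were higher after WT1 deletion, 37.2%. Of 13 markers 8 had a row, all lower after WT1 deletion, with a summed FPKM of 4908 in control against 1204 in WT1-deleted cells, and 5 of 11 granulocyte markers were lower too, with 729 and 219. The sinusoidal endothelial markers Mrc1, Stab1 and Cdh5, the 3 of 15 with a row, were lower as well, with a summed FPKM of 174 and 48.8, as was the lymphocyte marker Gzma, with 9.93 and 3.05. Of 13 stellate cell markers 4 had a row, 3 higher and 1 lower, with a summed FPKM of 53.3 and 119. Bile duct markers had 2 rows, Sox9 itself and Epcam, which was 4.39-fold higher. The part of these cell types in the Cebpa value and of bile duct cells in the Sox9 value was not tested. In GFP-high aHSCs 6 granulocyte markers were lower, with a summed FPKM of 520 and 149, and no macrophage marker had a row. Of all 123 named rows of GFP-high cells, 77.2% were higher after deletion.

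Outside the name rule, Osr1, a zinc finger factor of lateral plate mesoderm and fibroblast precursors, had a row in both aHSC tables. It had 7.24 FPKM in control against 16.6 in WT1-deleted GFP-high cells, and 4.01 and 14.4 in GFP-intermediate cells. In GFP-intermediate cells Fli1, an ETS factor of blood and endothelium, had 18.7 and 8.15, and Spib, a lymphoid and dendritic cell factor, had 25.0 and 10.7. Both were lower after deletion.

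Cebpa, Cebpd and Sox9 were the 3 members with a row in 2 tables, which were normalised separately. Cebpd and Sox9 were higher in label-positive than in label-negative qHSCs and higher in WT1-deleted than in control GFP-intermediate aHSCs. Cebpa was higher in label-positive qHSCs and lower after WT1 deletion. Levels are not compared across the tables.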

How the data were processed

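Sequencing was on an Illumina HiSeq, and the authors mapped reads with bowtie 2 and called differences with Cuffdiff2 at an adjusted p-value of 0.05. The submitters' processing notes name TopHat2 2.0.3, Cufflinks 2.0.1, DESeq2, mm9 and mm10, without saying which table each served. The deposited FPKM values are 1 per group, for the rows the authors listed only. FPKM is relative to all mapped fragments, so every ratio depends on the rest of that library. The authors' own fold changes, p-values and q-values were not used. Counts and depth per sample were not used here, so no test was run, although the study's methods state tests on replicates.

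Members were chosen by name, and the members and lists were chosen with earlier results of these data known. Log2 ratios were computed without a pseudocount. By rule, genes named were up to 3 per family with the largest log2 ratios (pseudocount of 1) in each direction, the highest FPKM per family, listed lineage genes and all members of the deletion tables. Tcf20, Klf9 and other members were named to account for the rest, except for a few that are not reported here. The immediate-early list was added after values were seen. Ensembl identifiers came from the authors' qHSC table. The name rule and ratios were tested on simulated data. Alternatives were an FPKM minimum of 1, single-gene rows, each symbol counted, an incomplete filter for DNA-binding members, a 2-fold minimum and pseudocounts of 1 and 0.1. Python 3.11.15, pandas 2.3.3, numpy 2.4.6 and matplotlib 3.10.9 were used. No column of per-sample values was left unused.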

Additional observations from a re-analysis of the deposited data

How the results depend on the processing

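No paired analysis was possible because the tables hold 1 value per group, although the qHSC fractions share animals. For the same reason no replicate could be left out. In qHSCs the numbers of higher and lower members, 53 and 33, were 50 and 30 with an FPKM minimum of 1. They were 52 and 31 with a filter for DNA-binding members, and 43 and 28 with a 2-fold minimum. The filter was incomplete, because it cannot have removed both Hoxb3os, an antisense transcript, and Nr0b2, which lacks a DNA-binding domain. Single-gene rows and counting each symbol could not change them, because no member row named more than 1 gene. A pseudocount cannot change the sign of a single ratio, so only sizes are compared. With a pseudocount of 1, the log2 ratio of Foxa3 was 1.90 rather than 4.36, and that of Foxp3 was -1.59 rather than -4.87. The qHSC median log2 ratio of 0.998 was 0.73 with a pseudocount of 1 and 0.97 with 0.1. For Foxp2 in GFP-high aHSCs it was 0.73 and 2.08, and an FPKM minimum of 1 left 0 members there. The GFP-intermediate median was 1.12 with a pseudocount of 1 and 1.32 with 0.1.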
